A study of Mus musculus with 9 samples.

Results

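The replication-linked histone genes of the mouse were followed through 9 deposited peak lists from mouse fat. Members were the protein-coding genes of the GENCODE M21 annotation whose symbol starts with Hist1h, Hist2h, Hist3h or Hist4h, which gave 67 genes of 21938 protein-coding genes. The rule used names only and no measured value. By the histone they encode, 6 were H1, 18 were H2A, 18 were H2B, 12 were H3 and 13 were H4 genes. On mm10, the Hist1 cluster held 54 members at chr13:21715763-23934851, the Hist2 cluster held 10 at chr3:96219865-96270132, Hist3 held 2 at chr11:58948920-58956830 and Hist4 held 1 at chr6:136801553-136804415.

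DNA is wound around a core of H2A, H2B, H3 and H4 proteins to make a nucleosome, and H1 sits on the DNA that links nucleosomes. A dividing cell has to make as much histone as DNA, so these genes lie in clusters, are transcribed mainly in S phase from a nuclear body assembled around the protein NPAT, and give short mRNAs that end in a stem-loop in place of a poly(A) tail. Non-dividing cells draw on other histone genes, the replication-independent variants, which lie alone in the genome and give polyadenylated mRNAs, and some cluster genes can also be read through into longer polyadenylated transcripts.

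The ETS family factor Ets1 was mapped by CUT&Tag, which uses an antibody to bring a transposase to the protein of interest. The RT and CS libraries came from floating mature adipocytes of the inguinal fat pad (iWAT) of male mice of 8 to 10 weeks, held at room temperature (RT) or after cold stress of 7 days (CS). The beige library came from cells of the stromal vascular fraction of iWAT, taken from male mice of 3 to 4 weeks and differentiated in culture for 6 days with insulin, dexamethasone, T3, rosiglitazone and IBMX. H3K27ac, an acetyl mark of active promoters and enhancers, was mapped in the same way in adipocytes of EC+/+ mice (Ets1 ki/ki, a silent knock-in at Hipp11 of Ets1 and EGFP behind a stop cassette, with no Cre), EA+/+ mice (the same allele with Adipoq-cre, which is active in adipocytes), Flox mice (Ets1 f/f, no Cre) and EAKO mice (Ets1 f/f with Adipoq-cre), all males of 8 to 10 weeks. ATAC, which tags open chromatin with a free transposase, was run on Flox and EAKO adipocytes. Each group had 1 library, so no difference between groups has a replicate check and no test was run.

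The lists held 4056 Ets1 peaks at RT, 14858 after cold and 30553 in beige cells, 33713 to 86834 peaks for H3K27ac, and 82839 (EAKO) or 88977 (Flox) for ATAC. The files themselves carry no read totals. The study lists totals that are close for the RT and CS libraries and larger for beige and for ATAC, which were not used here, and a −log10 q was read only within its own list. Of 15 adipocyte markers, 10 had a promoter peak in Flox ATAC, Plin1, Lipe and Cebpa among them, while Adipoq, Cidec and Cfd had none in any list. Markers of other cells were also met there: 9 of 10 for stromal progenitors, 6 of 8 for endothelium, 3 of 10 for macrophages and 2 of 8 for lymphocytes, and their part in the results was not tested.

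Sequences of the members are shown first, since a histone promoter is built from a few short elements and the end of the gene from a stem-loop. RefSeq promoter sequence (GRCm38.p6, the same assembly as mm10) was found for 62 of the 67 members. The 200 bases before the RefSeq start are given below, 5′ to 3′ on the gene's strand, for 7 members that the results turn on. Capitals mark the words TATAAA (the TATA box), CCAAT (bound by NF-Y) and ATTTGCAT (the octamer, bound by Oct-1) on either strand, so that some capitals spell the reverse complement of a word, such as ATTGG for CCAAT. Hist1h2ac (chr13:23683960-23684159, minus strand) carries all 3 and shares its control region with Hist1h2bc, Hist3h2a (chr11:58954485-58954684, plus) is the member with the highest beige Ets1 value, Hist1h3g (chr13:23535218-23535417, plus) is the highest H3 gene whose Ets1 peak was in beige cells alone, and Hist1h1c (chr13:23738607-23738806, plus) is an H1 gene met in 8 lists. Hist4h4 (chr6:136804432-136804631, minus) is the member with an Ets1 peak after cold and none in beige cells, Hist1h4d (chr13:23581368-23581567, plus) is an H4 gene with no Ets1 peak, and Hist1h2aa (chr13:23934237-23934436, plus) is the H2A gene of a testis pair that had no peak at all.
Hist1h2ac: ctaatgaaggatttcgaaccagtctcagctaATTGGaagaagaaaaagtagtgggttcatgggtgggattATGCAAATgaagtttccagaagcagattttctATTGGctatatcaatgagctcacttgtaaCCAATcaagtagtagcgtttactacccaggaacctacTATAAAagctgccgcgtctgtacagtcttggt
Hist3h2a: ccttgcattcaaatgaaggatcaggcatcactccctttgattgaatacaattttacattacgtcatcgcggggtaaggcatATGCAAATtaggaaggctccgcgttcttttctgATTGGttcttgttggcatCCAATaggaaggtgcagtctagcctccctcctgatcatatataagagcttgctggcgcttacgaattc
Hist1h3g: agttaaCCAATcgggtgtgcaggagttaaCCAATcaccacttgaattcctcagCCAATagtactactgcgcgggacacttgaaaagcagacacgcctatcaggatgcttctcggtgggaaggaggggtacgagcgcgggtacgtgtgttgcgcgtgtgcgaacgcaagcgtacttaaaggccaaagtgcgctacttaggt
Hist1h1c: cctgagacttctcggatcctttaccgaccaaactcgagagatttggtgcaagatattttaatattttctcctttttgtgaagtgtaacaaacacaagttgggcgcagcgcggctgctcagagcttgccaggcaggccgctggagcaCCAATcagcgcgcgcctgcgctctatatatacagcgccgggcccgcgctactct
Hist4h4: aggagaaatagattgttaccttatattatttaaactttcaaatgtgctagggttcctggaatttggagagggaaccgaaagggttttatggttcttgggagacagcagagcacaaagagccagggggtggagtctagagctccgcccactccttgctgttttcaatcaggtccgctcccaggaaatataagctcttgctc
Hist1h4d: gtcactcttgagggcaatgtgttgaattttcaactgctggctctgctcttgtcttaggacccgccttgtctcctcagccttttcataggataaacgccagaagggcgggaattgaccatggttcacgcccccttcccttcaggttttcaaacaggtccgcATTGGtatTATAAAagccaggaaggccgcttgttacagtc
Hist1h2aa: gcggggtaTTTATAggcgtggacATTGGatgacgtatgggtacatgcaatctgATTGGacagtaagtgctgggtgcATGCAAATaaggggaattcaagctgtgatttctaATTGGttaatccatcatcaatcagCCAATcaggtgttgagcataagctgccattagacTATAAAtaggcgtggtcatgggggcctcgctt

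The words followed the histone type. In the RefSeq windows of 300 bases (250 before and 50 after the start), CCAAT was present in every H1, H2A, H2B and H3 promoter examined (6, 18, 16 and 10) but in 3 of 12 H4 promoters, and it was present in 37.9% of all 27025 promoters of the table. TATAAA was found in 35 of 62 members (56.5%) and in 14.2% of all promoters. The octamer was met in 7 of 18 H2A and 6 of 16 H2B promoters, in no H1, H3 or H4 promoter, and in 1.75% of all promoters. CCGGAAG, a word of the kind that ETS factors bind, was present in 1 of 62 members, Hist1h1e, where it lies after the start, and in 9.12% of all promoters. No occurrence of these words overlapped another in the members. A match describes letters and is not a site of binding.

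At the other end of the gene, 61 of 67 members carried a stem-loop match of 16 bases, with its first base 22 to 59 bases (median 31) past the stop codon. Capitals mark the stem of 6 bases on each side and lower case the loop of 4. Form A belonged to 41 members, among them Hist1h2ac, where it lies at chr13:23683477-23683492 on the minus strand, B to 9, C to 8, D to 2 and E to 1. The 6 members with no match included Hist1h3g, Hist1h4a, Hist2h2be and Hist1h4j.
Form A: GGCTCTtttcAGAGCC
Form B: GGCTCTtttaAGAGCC
Form C: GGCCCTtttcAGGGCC
Form D: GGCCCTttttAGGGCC
Form E: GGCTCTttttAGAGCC
In 25 of the 61, the annotated gene ran on past the stem-loop by over 100 bp, as it does where a longer polyadenylated transcript has been annotated. Hist1h2bc ran 8246 bp past it, Hist4h4 2445 bp, Hist1h2ac 2010 bp and Hist3h2a 1643 bp.

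A member was counted as having a promoter peak when a peak overlapped the 1 kb on either side of a transcription start site (TSS). Ets1 peaks were met at 0 of 67 members at RT, at 9 after cold and at 37 in beige cells. All protein-coding genes gave 4.06% at RT, 32.7% after cold and 46.4% in beige cells, so that the members' shares of 0%, 13.4% and 55.2% lay below the background in both lists from tissue and above it in the list from culture. The 95% Wilson intervals, which cover counting error only, were 0 to 5.42%, 7.23 to 23.6% and 43.4 to 66.5%, and the first and the last of them included the background. H3K27ac was found at 20 members in EC+/+ (29.9%, all genes 52%), 26 in EA+/+ (38.8%, all genes 50.4%), 50 in Flox (74.6%, all genes 63.9%) and 44 in EAKO (65.7%, all genes 60.5%). ATAC was positive at 58 members in Flox (86.6%, all genes 67.7%) and 55 in EAKO (82.1%, all genes 66%). The chromatin of these genes was thus listed as open in adipocytes more often than that of the average gene, while Ets1 in the same cell type was listed less often.

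**Figure D1:**
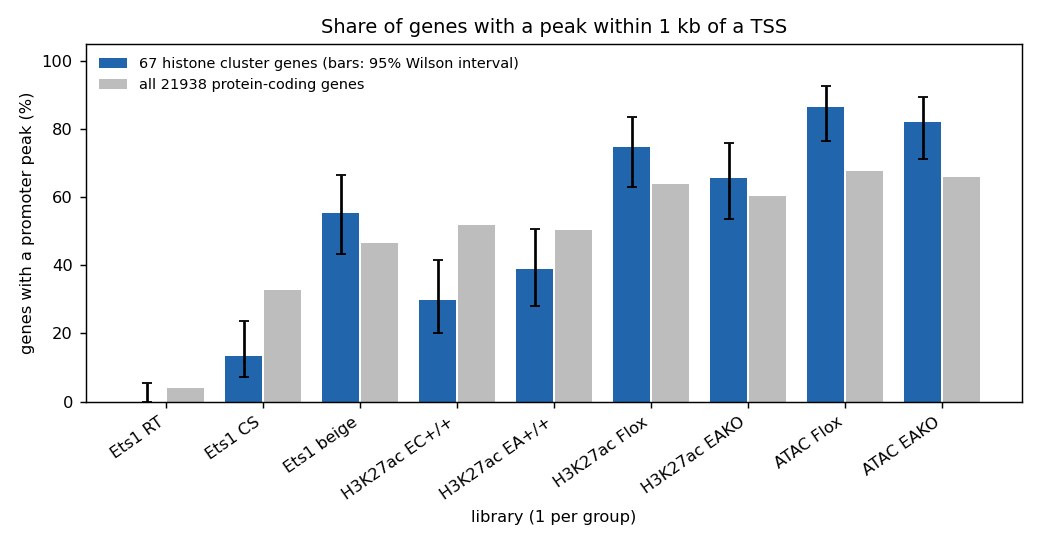
Share of genes (%) with a peak within 1 kb of a TSS in each of the 9 libraries, 1 per group, for the 67 histone cluster genes (blue, bars are 95% Wilson intervals over genes) and all 21938 protein-coding genes (grey). The blue bar is below the grey one at RT, after cold, in EC+/+ and in EA+/+, and above it in beige cells and in the 4 Flox and EAKO lists.

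The members are not independent of each other. A 5′ end lay within 2 kb of another member's for 51 of the 67, and the 37 beige members rested on 31 distinct peaks, the 9 cold members on 7. Counted as 38 joined windows, 0 carried Ets1 at RT, 7 after cold and 23 in beige cells, and 35 carried ATAC in Flox. H2A and H2B genes often face away from each other, and 12 such pairs had their starts a median of 259.5 bp apart. With 1 kb on each side of a start, the windows of a pair largely coincide, so that members of a pair went together almost by construction. In beige cells 8 pairs had Ets1 at both members and 4 at neither, 1 pair (Hist1h2ac and Hist1h2bc) had it after cold, and 9 pairs had ATAC at both in Flox. Each time at least 1 peak lay in the windows of both genes.

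**Figure D2:**
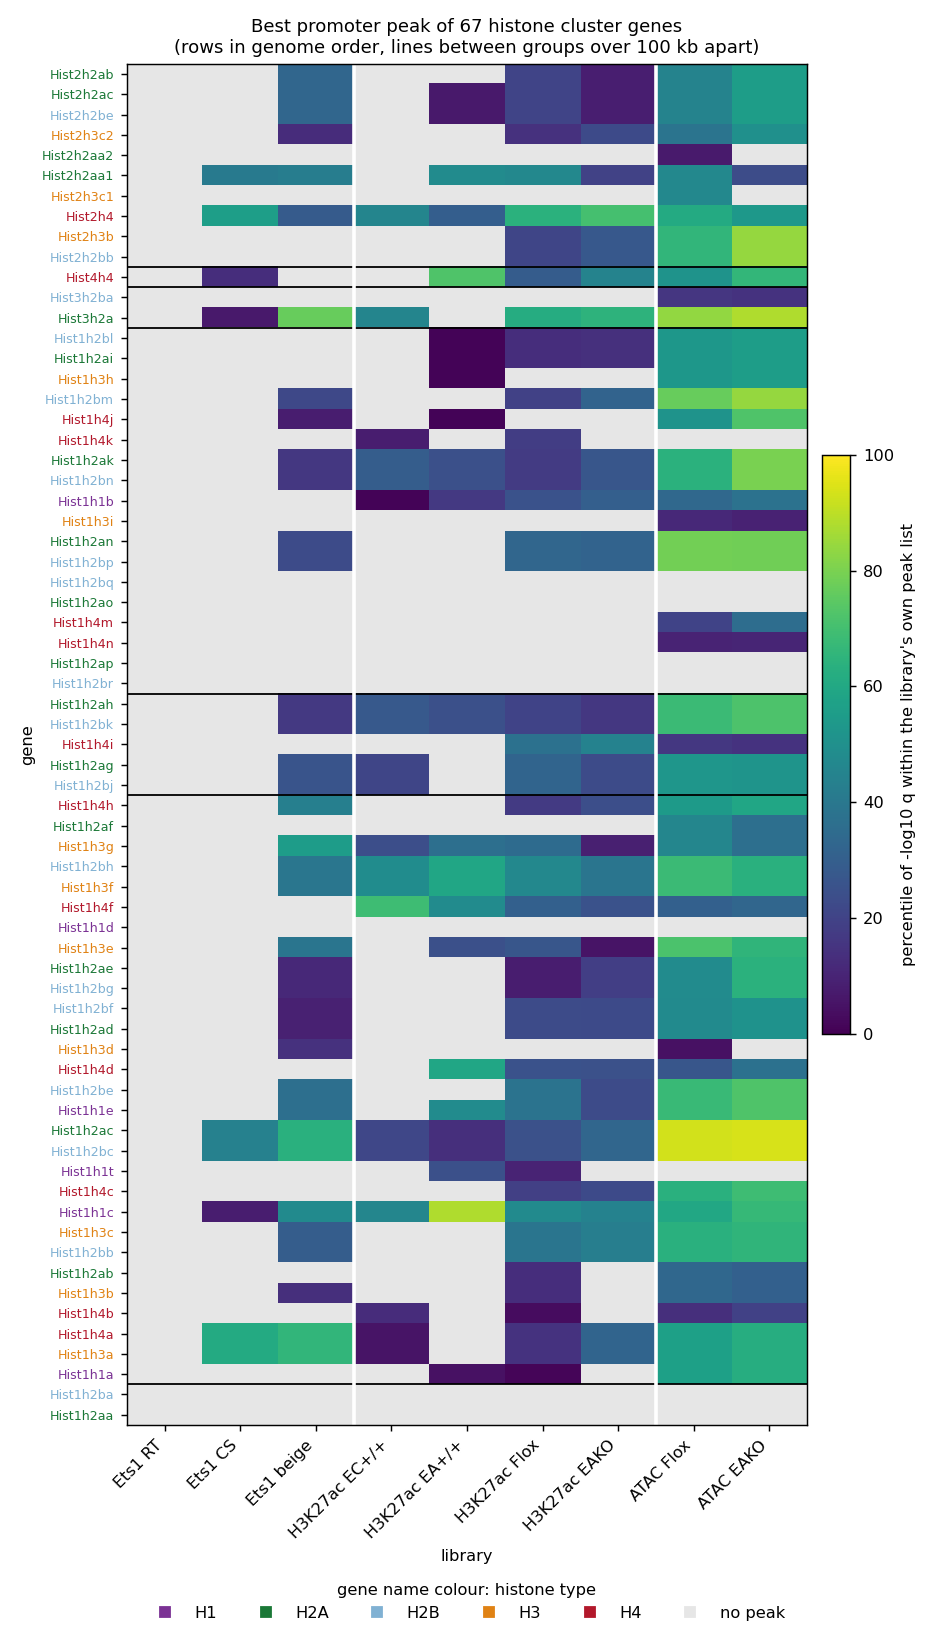
Best promoter peak of every member (rows, in genome order, name coloured by histone type) in each of the 9 libraries (columns), as the percentile of its −log10 q among the best promoter peaks of all genes with one in that library. The peak list named at the colour bar means these promoter peaks alone. Grey means no peak and black lines separate groups of members over 100 kb apart. The RT column is empty, 9 cells are filled after cold and 37 in beige cells, and the 7 rows with no filled cell include both genes of the testis pair and the 4 repeated H2A and H2B copies.

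Hist1h2ac and Hist1h2bc, Hist2h4 and Hist1h1c were the members with a peak in 8 of the 9 lists, all but RT, and no member had one in all 9. Hist1h2ac and Hist1h2bc share 1 window, and their peak had a −log10 q of 4.84 after cold (percentile 43.9) and 21.4 in beige cells (percentile 63.6). Percentiles here and below rank a member among all genes with a promoter peak in that library, each by its best peak. Their ATAC peaks led all members, at percentile 93.3 in Flox and 94 in EAKO. For Hist2h4, an H4 gene, the Ets1 value was 5.93 after cold (percentile 56) and 7.87 in beige cells (percentile 28.9), and its H3K27ac peak led the members in Flox (37.4) and EAKO (37.2). The summit of this beige peak lay at 934 bp from the start of Hist2h4, past its stem-loop. Hist1h1c, which encodes linker histone H1.2, had 2.31 after cold (percentile 8.12) and 13.5 in beige cells (percentile 47.7), and led the members in EA+/+ with an H3K27ac value of 9.9 (percentile 88.2). The cold summit of Hist1h1c lay at −7 bp from the start. Its beige and EA+/+ summits lay at 939 and 997 bp, past the stem-loop, so these values do not belong to the same place.

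In the cold list the highest members were Hist1h3a and Hist1h4a, which share a peak with a −log10 q of 6.41 (percentile 61.2). This peak covered the start of Hist1h3a. Its summit lay at −1115 bp from the start of Hist1h4a, outside that gene's window. Next came Hist2h4 at 5.93, then Hist1h2ac and Hist1h2bc at 4.84, Hist2h2aa1 at 4.51, Hist4h4 at 2.75, Hist1h1c at 2.31 and Hist3h2a at 2.14. The median over the 9 was 4.84, against 5.37 over all genes with a cold promoter peak. All 7 of their peaks overlapped a Flox ATAC peak and a Flox H3K27ac peak, as did 92.4% and 91.9% of all cold promoter peaks. The cold members were the longer annotated genes: the median span was 1630 bp for the 9 and 522 bp for the other 58, and 6 of the 8 with a stem-loop ran past it by over 100 bp, against 19 of 53. This was seen after the values were known and was not tested. None of the 23 Hist1 members in the groups from Hist1h2bl to Hist1h2bj had an Ets1 peak after cold (all genes 32.7%). Among these are Hist1h2bq, Hist1h2ao, Hist1h2ap, Hist1h2br, Hist1h4m and Hist1h4n. In their windows 92 to 100% of the 50-base words recur in the genome, so the lack of a peak there is uncertain.

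In beige cells the highest value was at Hist3h2a, an H2A gene of the small Hist3 cluster, with a −log10 q of 32.1 (percentile 76.6). Hist1h3a and Hist1h4a followed at 22.9 (percentile 65.8), with 1 shared peak over the start of Hist1h4a. Then came Hist1h2ac and Hist1h2bc at 21.4. Over the 37 members values ran from 3.5 to 32.1 with a median of 7.99, below the median of 14.4 over all genes with a beige promoter peak, and the median member stood at percentile 29.3 of those genes. Beige Ets1 was thus met at 55.2% of the histone genes, with the 46.4% of all genes inside the Wilson interval. Its values there were low among genes with a beige promoter peak. All 31 peaks overlapped a Flox ATAC peak (all beige promoter peaks 95.6%) and 26 overlapped a Flox H3K27ac peak (83.9%, all beige promoter peaks 91.4%), although the ATAC and H3K27ac lists come from tissue adipocytes and not from the cultured cells.

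**Figure D3:**
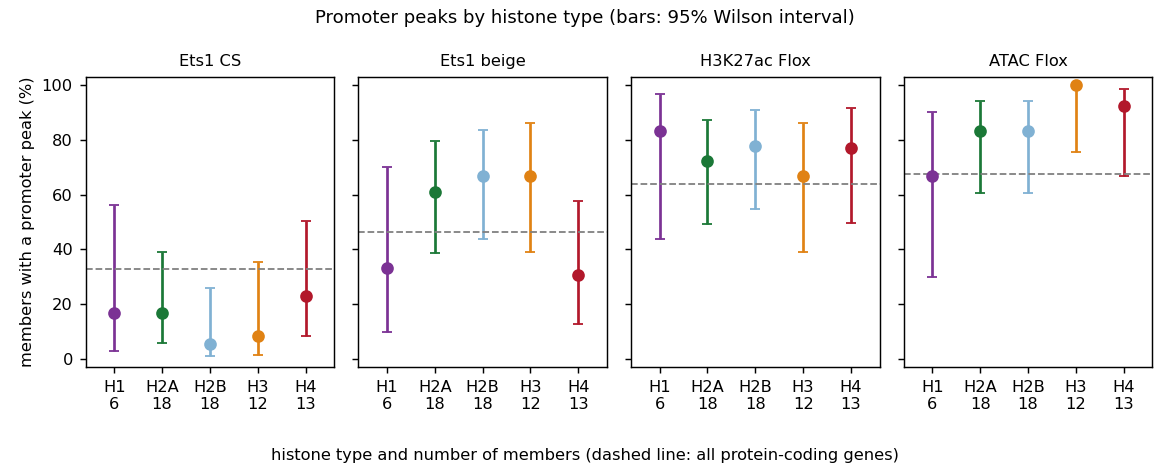
Share of members (%) with a promoter peak by histone type in 4 of the libraries, with 95% Wilson intervals over genes; the dashed line is the share of all protein-coding genes. After cold every type lies below the line, while in beige cells H2A, H2B and H3 lie above it and H1 and H4 below, with intervals that overlap between types.

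By histone type, beige Ets1 was found at 11 of 18 H2A genes (61.1%), 12 of 18 H2B (66.7%), 8 of 12 H3 (66.7%), 4 of 13 H4 (30.8%) and 2 of 6 H1 (33.3%). All genes gave 46.4% in that list. The H4 genes, most of which lack CCAAT, were also open. Of the 13, 12 had a Flox ATAC peak (all genes 67.7%) and 10 had Flox H3K27ac (all genes 63.9%). The Wilson interval of H4 in beige cells, 12.7 to 57.6%, overlapped that of H2B, 43.7 to 83.7%, so types could not be set apart at these numbers. After cold the counts were 3 of 18 H2A, 1 of 18 H2B, 1 of 12 H3, 3 of 13 H4 and 1 of 6 H1. All genes gave 32.7% after cold, and Hist1h4a is counted here through the peak over the start of Hist1h3a. Every H3 gene had a Flox ATAC peak in its window (12 of 12, in EAKO 10 of 12), as did 15 of 18 H2A and 15 of 18 H2B. At H3 genes such as Hist2h3c1, Hist1h3h and Hist2h3b the summit of that peak lay outside the window, at −1485, −1396 and 1067 bp from the start. With only summits inside the window counted, 49 members of all types had a Flox ATAC peak, against 58. By cluster, beige Ets1 was met at 30 of 54 Hist1 members (55.6%), 6 of 10 Hist2, 1 of 2 Hist3 and 0 of 1 Hist4 members, and cold Ets1 at 5, 2, 1 and 1.

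Genes of other families inside the same stretch had lower counts. Between the ends of the Hist1 cluster, 49 other protein-coding genes lie, many of them Vmn1r pheromone receptors. Ets1 was met at 0 of these after cold (all genes 32.7%) and 5 in beige cells (10.2%, all genes 46.4%), and Flox ATAC at 11 (22.4%, all genes 67.7%). The 5 were Pom121l2, Zfp322a, Abt1, Btn2a2 and Slc17a4, and of the 11 Vmn1r210 alone was a Vmn1r gene. The low shares of beige Ets1 and ATAC thus rested largely on the Vmn1r genes. The Hist2 and Hist3 clusters held no other protein-coding gene.

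The Ets1 lists were next compared pairwise. From RT to CS, 9 members had a peak after cold alone and 0 at RT alone, where all genes gave 29.1% and 0.428%. The 5 highest were those named above, Hist1h3a and Hist1h4a, Hist2h4, and Hist1h2ac and Hist1h2bc. Between RT and beige, 37 members had a peak in beige cells alone (all genes 42.8%) and 0 at RT alone (all genes 0.401%). With the beige and cold lists held to the 4056 best peaks, the length of the RT list, 3 members remained in CS and 1 in beige cells, and 0 at RT.

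Set beside adipocytes of cold mice, the cultured cells gave 29 members with Ets1 in beige cells alone (43.3%, all genes 17.1%), 1 after cold alone (1.49%, all genes 3.39%), 8 in both and 29 in neither. The highest of the 29 were Hist1h3g at 16.7, Hist1h4h at 11.9, Hist1h2bh and Hist1h3f at 10.7 and Hist1h3e at 10.6. The Hist1h4h value came from the higher of 2 peaks, with its summit at 697 bp from the start, beyond the annotated end of the gene. The 29 were 8 H2A, 11 H2B, 7 H3, 2 H4 and 1 H1 gene. Hist4h4, the only member of its cluster, was the exception, with a −log10 q of 2.75 after cold and no peak in beige cells. Of the 8 in both lists, 6 had a cold peak that overlapped a beige peak, counting every peak in the window. At Hist2h2aa1, where over 50% of the 50-base words of the window recur in the genome, the peaks of both lists had the same ends (chr3:96245106-96245321). Hist2h4 and Hist1h1c each had 2 beige peaks, and the higher of them did not overlap the cold peak. The others were Hist1h3a and Hist1h4a, where the cold peak (chr13:23762120-23762406) covered the start of Hist1h3a and the beige peak (chr13:23761160-23761696) covered the start of Hist1h4a. Cultured cells differ from the tissue cells in age of donor, medium, drugs and cell mixture, and these cannot be told apart.

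The difference depended on how far down the lists one reads. With all 30553 beige peaks, 55.2% of members were met, and with the 14858 best, as many as the cold list holds, 22 members (32.8%, all genes 35.1%) against 9 after cold. With the 8000 best of each, 7 members were met in beige cells and 6 after cold, and with the 4056 best, 1 (Hist3h2a) against 3. Over the same steps the shares of all genes stayed close in beige cells and after cold, at 24.4% and 24.9% with the 8000 best and 14.9% and 15.9% with the 4056 best. With the 20000 best beige peaks 31 members were met, and with the 25000 best all 37, so most beige members were reached in the middle ranks of the list.

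**Figure D4:**
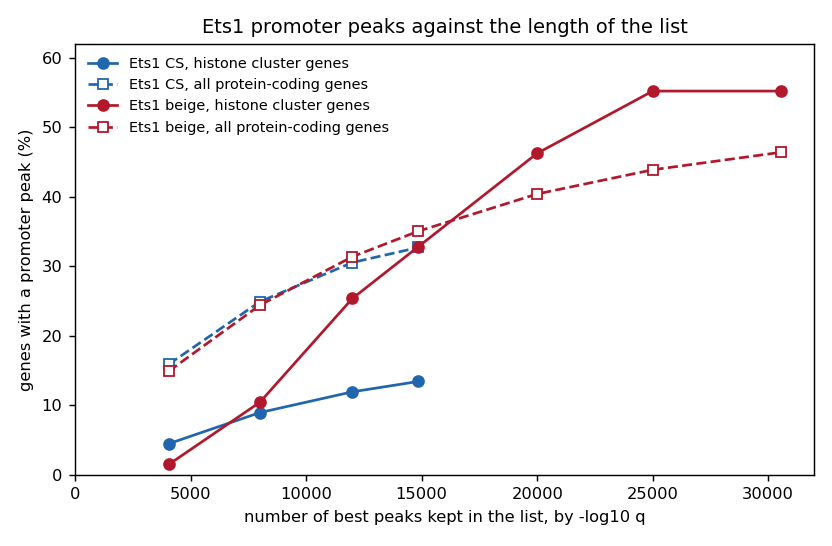
Share of genes (%) with an Ets1 promoter peak when only the best peaks of a list are kept (x axis, number of peaks by −log10 q), for the cold (blue) and beige (red) lists, for histone cluster genes (filled) and all protein-coding genes (open, dashed). The dashed lines lie close together, while the filled red line rises from 1.49% to 55.2% and the filled blue line from 4.48% to 13.4%.

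Letters of the kind that ETS factors bind were also counted under the peaks. In the 101 bases around the summit, CCGGAAG was present in 0 of 7 cold and 0 of 24 beige best peaks of members, and in 5.32% of 6935 cold and 7.71% of 11068 beige promoter peaks of all genes. The shorter core GGAA was present in 5 of 7 and 15 of 24, and in 58.6% and 64.1% of all promoter peaks. With 7 and 24 peaks, a share as low as that of all genes could not be told from 0.

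Ets1 was also counted among open promoters alone. Of the 58 members open in Flox ATAC, 15.5% had a cold Ets1 peak and 63.8% a beige one, where all 14858 genes open in Flox gave 47.4% and 68.1%. H3K27ac in Flox was met at 82.8% of open members and 90.6% of open genes, and in EC+/+ at 32.8% and 73.7%. Of the 37 members with beige Ets1, 35 had Flox H3K27ac (94.6%, all genes with beige Ets1 98.4%), and of the 30 without, 8 of which have repeated windows, 15 had it (50%, all genes without beige Ets1 34%).

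The knock-in pair gave a mixed picture. H3K27ac was found at 13 members in both EC+/+ and EA+/+, at 7 in EC+/+ alone (10.4%, all genes 8.89%) and at 13 in EA+/+ alone (19.4%, all genes 7.33%). The highest in EC+/+ alone were Hist3h2a at 5.66, Hist1h2ag and Hist1h2bj at 3.58, Hist1h4b at 3.06 and Hist1h4k at 2.56. In EA+/+ alone they were Hist4h4 at 7.06, Hist1h4d at 5.64, Hist1h1e and Hist2h2aa1 at 4.81, and Hist1h3e, level with Hist1h1t at 3.29. H1 genes were met at 2 of 6 in EC+/+ (all genes 52%) and 5 of 6 in EA+/+ (all genes 50.4%). The Wilson intervals of these 2 shares, 9.68 to 70% and 43.6 to 97%, overlapped. Among the H1 genes, Hist1h1t encodes the testis H1, which had no ATAC peak in either list. Members ranked low among genes with a promoter peak in these lists, with their median −log10 q at 3.97 in EC+/+ and 3.29 in EA+/+ against 6.01 and 4.97 over all such genes. Under a stricter q of 0.001 both lists had 16 members, with 6 in EC+/+ alone and 6 in EA+/+ alone, so that the excess in EA+/+ was lost. With equal numbers of peaks 7 and 9 were in EC+/+ and EA+/+ alone, and with windows of 500 bp 9 and 10. Of both lists the leaders were Hist1h4f at 8.35, and Hist1h2bh and Hist1h3f at 5.85, in EC+/+, and Hist1h1c at 9.9 in EA+/+.

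In the knock-out pair the lists were nested. H3K27ac was found at 44 members in both Flox and EAKO, at 6 in Flox alone (8.96%, all genes 5.18%) and at 0 in EAKO alone (all genes 1.75%). The 6 were Hist1h4k at 8.62, Hist1h2ab and Hist1h3b at 6.25, Hist1h1t at 5, Hist1h4b at 3.09 and Hist1h1a at 2.4, all in the lower ranks of genes with a Flox promoter peak. All 44 had overlapping peaks. The leaders were the same at the top, Hist2h4 (37.4 in Flox and 37.2 in EAKO) and Hist3h2a (35.9 and 32.6), and Hist1h2bh and Hist1h3f (24) and Hist1h1c (24.8 and 19.7) followed in Flox. Hist4h4 had 14 in Flox and 20.1 in EAKO, and Hist1h4i followed in EAKO at 19.9. When each H3K27ac list was held to its 33713 best peaks, 6 members were in Flox alone and 5 in EAKO alone, so that the lists were then not nested.

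ATAC was more alike still. Peaks were found at 55 members in both, at 3 in Flox alone (4.48%, all genes 2.54%) and at 0 in EAKO alone (all genes 0.784%). The 3 were Hist2h3c1 at 74.3, Hist2h2aa2 at 11.6 and Hist1h3d at 7.92. For Hist2h3c1 the Flox peak met an EAKO peak that ended short of its window, and the first 2 lie in a stretch where over 50% of the 50-base words of the window recur in the genome. Besides Hist1h2ac and Hist1h2bc, the highest were Hist3h2a (147 in Flox, 119 in EAKO) and, in Flox, Hist1h2an and Hist1h2bp (136). In EAKO, Hist1h2bm stood at 109.6 and Hist2h2bb at 109.

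EC+/+ and Flox are both controls without Cre. H3K27ac was met at 20 members in EC+/+ and 50 in Flox, and all 20 were among the 50. With equal numbers of peaks Flox still had 38 members (56.7%, all genes 53.5%). The libraries come from different mouse lines, and no member is compared across them further.

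No peak was found in any list for 7 members. Hist1h2bq, Hist1h2ao, Hist1h2ap and Hist1h2br are H2A and H2B genes in a duplicated stretch, and 100% of the 50-base words in their windows occur elsewhere in the genome, against a median of 19.3% over all members. The study names uniquely mapped reads for its coverage tracks, and whether the peaks were called from these is not given in the sources used here. The part of read placement in the lack of peaks was not tested. Hist1h4m and Hist1h4n, in the same stretch at 93% and 92%, had ATAC peaks only (29.7 and 15.5 in Flox, 34.7 and 10.9 in EAKO). Hist1h2ba and Hist1h2aa, the pair encoding the testis H2B and H2A, are different: 7.07% of the words in their windows recur, the RefSeq windows of both hold the TATA word, the NF-Y word and the octamer, and no list had a peak there. Hist1h1d, which encodes H1.3, had no peak within 1 kb of its M21 start, which lies 1770 bp from its RefSeq start. At the RefSeq start a peak was found in beige Ets1 (4.95), EC+/+ H3K27ac (4.95), Flox (11.9) and EAKO (7.29) H3K27ac, and Flox (74) and EAKO (59.4) ATAC, which would make 38 beige members. The RT and CS Ets1 lists and EA+/+ H3K27ac had no peak at that start either. Of the small clusters, Hist3h2ba, an H2B gene, had ATAC alone (23.7 in Flox, 14.6 in EAKO), and its neighbour Hist3h2a lacked a peak at RT and in EA+/+ only.

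Genes that work on or with histones had larger shares after cold, as a description with no test. A list of 15 genes for histone gene transcription and 3′ end processing gave 11 with cold Ets1, 15 with beige Ets1 and 14 with EC+/+ H3K27ac. Npat, the factor that switches on histone transcription, stood at 15.3 after cold and 34.9 in beige cells, Hinfp, the activator of H4 genes, at 18.1 and 92.3, and Slbp, which binds the stem-loop, at 12.1 and 27.3. Of 15 histone chaperones, 12 had cold and 15 beige Ets1. Chaf1a, a CAF-1 subunit that lays histones onto new DNA, had no cold peak, and Asf1b stood at 8.26 and 49.4. Of 40 S phase and division genes, 22 had cold and 36 beige Ets1, with Pcna at 12.2 and 93.9 and Mki67 at 5.75 and 60.7, while Mcm2 (beige 6.89) and E2f1 (beige 27.1) had no cold peak. The 11 replication-independent histone variants gave 6 and 9: H2afz (H2A.Z) stood at 10.8 and 44.6, and H3f3a and H3f3b, which both encode H3.3, had 5.64 and no peak after cold and 85.5 and 60.7 in beige cells. All 4 lists had Flox ATAC at every gene, and Flox H3K27ac too. All genes gave 32.7% after cold, 46.4% in beige cells and 52% in EC+/+ H3K27ac. The genes open in Flox ATAC gave 47.4% after cold and 68.1% in beige cells. The cold shares of the S phase genes and the variants thus lay nearer to that of open genes than to that of all genes. The 13.4% of the cluster genes after cold stood below all genes and below 55% (S phase), 73.3% (processing), 80% (chaperones) and 54.5% (variants).

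**Figure D5:**
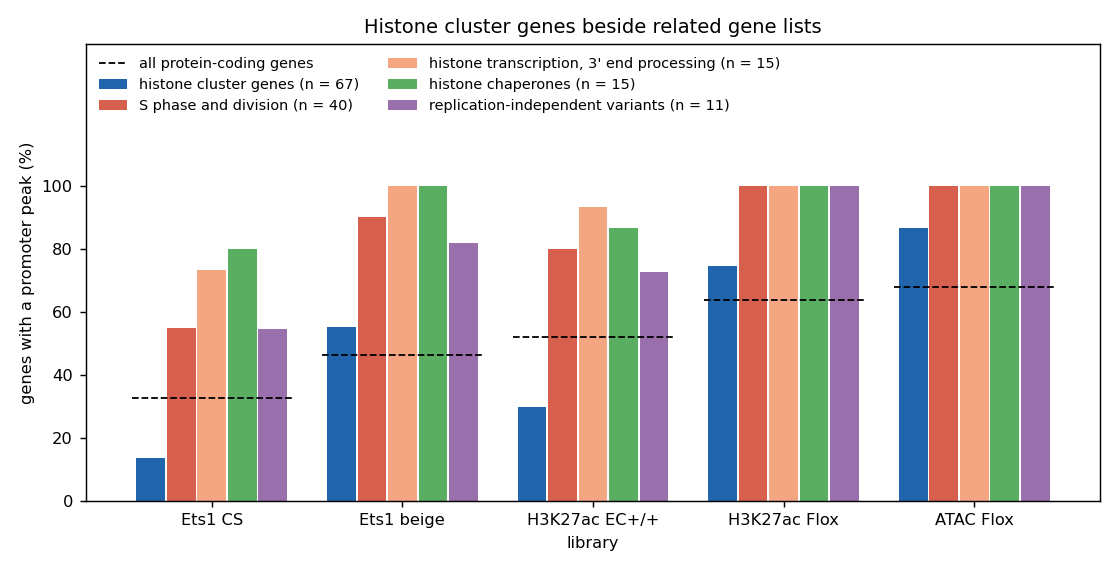
Share of genes (%) with a promoter peak in 5 of the libraries for the histone cluster genes (blue) and 4 lists of related genes, with the share of all protein-coding genes as a dashed line. In the cold Ets1 list the blue bar is at 13.4% and the related lists between 54.5% and 80%; in Flox ATAC the related lists are all at 100% and the blue bar at 86.6%.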

How the data were processed

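The authors trimmed reads with trimmomatic, aligned them with BWA to mm10, and ran MACS2 on every library with a q-value limit of 0.05. Use of a control library or a blacklist was not given in the sources used here. Each deposited list gives a score, a fold enrichment (a ratio over local background), the −log10 p-value, the −log10 q-value and the summit offset, all made by the authors per library. Uniquely mapped reads are named for the coverage tracks. For peaks this is not given, so values at near-identical gene copies are uncertain.

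Promoters were 1 kb on each side of the 93513 TSS of 21938 protein-coding genes (GENCODE M21, chromosomes 1 to 19, X and Y). An overlap of 1 bp counted. The overlap code was tested on planted peaks. Where a member had several peaks, the one with the highest −log10 q was used. Its percentile was taken among the best promoter peaks of all genes with one in the same library, not among all peaks of the list. Shares have 95% Wilson intervals. No p-value was computed. Named with values were the 5 highest members of each list, up to 5 highest in 1 of 2 libraries, members in all 9 lists or none, all of Hist3 and Hist4, and, chosen after their values were seen, members in 8 lists, the other cold members and those whose sequence or start is shown. Words were searched on both strands of RefSeq promoters, and stem-loops in the 200 bases after the stop codon. The members and gene lists were chosen with earlier results of these data known. Alternatives changed the q, list length, window, summit rule and TSS. Scripts ran in Python 3.11.15 with numpy 2.4.6 and scipy 1.17.1, and figures used matplotlib 3.10.9.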

Additional observations from a re-analysis of the deposited data

How the results depend on the processing

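The 15 counts of members were recomputed with a q under 0.001, equal numbers of best peaks per assay, windows of 500 bp or 3 kb, summits inside the window and the gene's 5′ end alone. Chosen after seeing the data were RefSeq starts, leaving out members with repeated windows (57 kept), joined windows (38) and the 14858 best peaks of each Ets1 list. Of 138 values, 116 stayed within 1.5 times the count reported and 22 did not. With equal numbers of best peaks, Ets1 was met at 3 members after cold and 1 in beige cells, so that 3 differed between RT and CS, 4 between CS and beige (3 after cold alone, 1 in beige cells alone, which turns the direction) and 1 between RT and beige, while 11 differed in H3K27ac between Flox and EAKO. With the 14858 best peaks, beige cells had 22 members, 15 differed from CS and 22 from RT. With a q under 0.001, EA+/+ had 16 members and 12 differed between EC+/+ and EA+/+ (6 in each alone, so that neither led). With summits inside the window, 6 differed in ATAC between Flox and EAKO, and without repeated windows 1 did. As joined windows, the counts were 23 in beige cells, 32 in Flox and 28 in EAKO for H3K27ac, and 35 in both ATAC lists, with 18 differing between CS and beige, 23 between RT and beige, 13 between EC+/+ and EA+/+ and 0 in ATAC. The smaller number of units counted lowers these by construction. With RefSeq starts, 1 member (Hist1h1d) was added in 6 lists. No paired analysis was possible because each group had 1 library. Precision is limited by 1 library per group, and no counts stand behind the peak values used.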
